A study of Mus musculus with 8 samples.

Results

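The 9 genes described here are Slc7a1, Slc7a2, Slc7a3, Slc7a5, Slc7a6, Slc7a7, Slc7a8 and Slc7a11 of the mouse Slc7 family of amino acid transporters, together with their partner gene Slc3a2. Their probe sets are those that the platform annotation of the Affymetrix mouse array assigns to 1 of these genes alone, a probe set being a group of short probes for 1 transcript. This gave 17 of 45101 probe sets, for 9 of 18194 named genes. The genes were chosen by their levels and their genotype and tissue differences on these same arrays, the fetal liver difference of Slc7a3 among them, so their values are given as a description, with no test of them and no p-value. All values are log2 of the deposited intensity, 1 unit being a doubling.

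The arrays measured total RNA of 4 groups of mice, with 2 arrays per group and 8 in all: Col18a1-/- bone marrow, Col18a1+/+ bone marrow, Col18a1-/- fetal liver and Col18a1+/+ fetal liver. Col18a1 encodes the chain of type XVIII collagen, a basement membrane proteoglycan, and the knockout is constitutional. Both lines were C57B6/J, marrow was flushed from femurs and tibias of males aged 3 months, and fetal livers came from embryos at day 14.5 whose sex the labels do not state. The cells were filtered to single-cell suspensions, RNA was extracted with Trizol, and each array held RNA pooled from 2 littermates. In such bulk RNA, fewer cells of a type and less RNA per cell cannot be told apart. With only 2 arrays in a group, their number is what limits precision here.

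Slc7 proteins carry amino acids across the plasma membrane. The cationic transporters Slc7a1, Slc7a2 and Slc7a3 work alone and take up arginine, lysine and ornithine. The light chains encoded by Slc7a5, Slc7a6, Slc7a7, Slc7a8 and Slc7a11 exchange amino acids, and they reach the cell surface only when joined by a disulfide bond to the heavy chain CD98, the product of Slc3a2. Developing erythroid cells, which make up much of the fetal liver, take up large amounts of amino acids for globin synthesis, and the transcription factor ATF4 raises several of these genes when amino acids run short.

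Markers separated the tissues. A summed level is the log2 of the summed intensities of a list, so its brightest markers weigh most. The summed level of 14 hepatoblast markers (of 15 listed) lay between 8.50 and 8.70 on the 4 bone marrow arrays and between 16.56 and 16.66 on the 4 fetal liver arrays, and the B lineage markers, 10 of 11 listed, lay between 13.83 and 13.93 in bone marrow and between 8.56 and 8.69 in fetal liver. Neutrophil markers, 11 of 12 listed, summed to 17.03 to 17.08 in bone marrow and to 13.42 to 13.88 in fetal liver. Erythroid markers, 10 of 13 listed, were high in both tissues except Hba-a1, which lay at 3.58 to 4.19. No marker of any list was at 0 because an array gives every probe a background signal. Col18a1, on chromosome 10, stood at 5.63 and 5.99 in knockout marrow against 7.84 and 7.85 in wild-type marrow, and at 8.17 and 8.06 in knockout fetal liver against 9.06 and 9.18 in wild-type fetal liver (limma adjusted p = 0.000787 in marrow and 0.0315 in fetal liver). Whether its probe set lies in the deleted part is not known here. The fetal liver genotypes also differed in sex-linked transcripts. Xist, the RNA that silences an X chromosome in female cells, was at 4.97 and 4.77 in knockout fetal liver against 11.04 and 11.22 in wild-type fetal liver, and Eif2s3y of the Y chromosome was at 9.38 and 9.42 in knockout against 3.29 and 3.00 in wild-type. In fetal liver, genotype and the sex make-up of the pools therefore cannot be told apart, while the marrow arrays were alike in Xist, at 4.61 to 5.03.

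Of the 17 probe sets, 11 reached a log2 level of 5 on at least 2 arrays, the filter used for the test. They belonged to 8 of the 9 genes, and for each gene the probe set with the highest mean was tested among 13136 genes. Both Slc7a11 probe sets stayed below the filter. Slc7a3 passed it only through its 2 knockout fetal liver arrays, so its place among the genes tested depended on the difference itself.

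**Figure D1:**
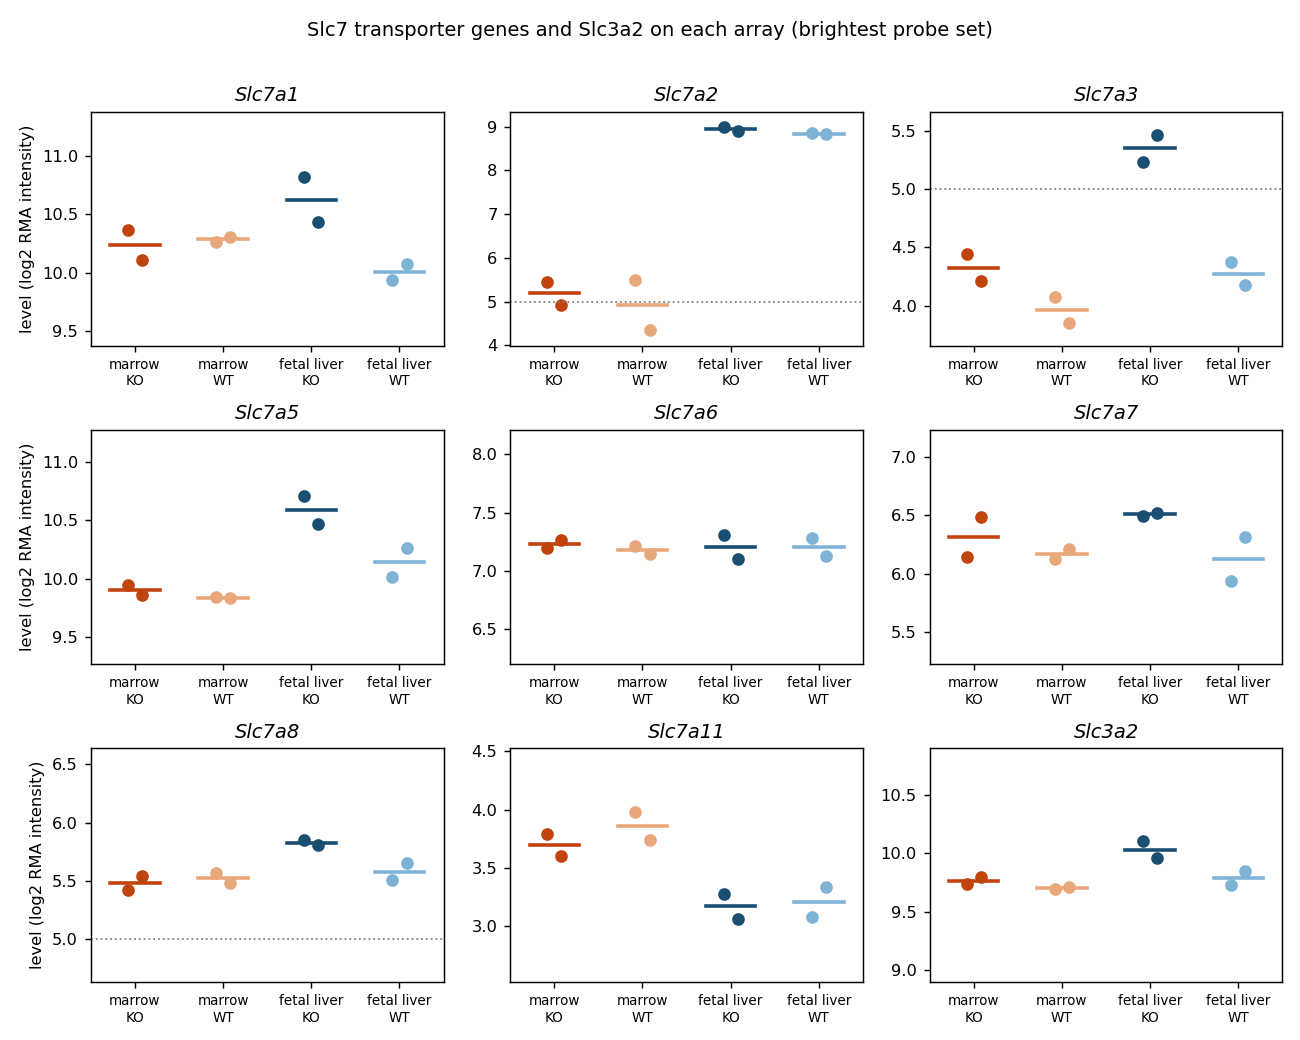
Log2 level (y axis, its range differing between panels) of the brightest probe set of each of the 9 genes on each of the 8 arrays (points, with a bar at the mean), grouped as knockout and wild-type bone marrow and knockout and wild-type fetal liver; the dotted line marks the filter level of 5. Slc7a2 is the gene whose tissues lie furthest apart, near 5 in bone marrow and near 9 in fetal liver, and the 2 knockout fetal liver points of Slc7a3 are its only points above the line.

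The promoter sequences of 6 of the 9 genes were matched by symbol in a RefSeq table (build GRCm38.p6), with 12 transcription starts. Slc7a2, Slc7a3 and Slc7a5 were not in the table. Short motifs of 2 kinds were searched on both strands of the 250 bases before each start. The core of the C/EBP-ATF response element, TGATGNAA, through which ATF4 acts on many amino acid genes, occurred in 3.45% of 32851 promoters of that length, and the core of the antioxidant response element, TGACNNNGC, bound by NRF2, in 10.2%. The 2 motifs do not overlap in the matches below. The 4 promoters shown are those of the heavy chain, of the cationic transporter Slc7a1 and of the 2 light chain genes with a C/EBP-ATF core, read 5′ to 3′ with the last base next to the start, and capitals mark the motif matches.
Slc7a11, chr3:50443614-50443863, minus strand: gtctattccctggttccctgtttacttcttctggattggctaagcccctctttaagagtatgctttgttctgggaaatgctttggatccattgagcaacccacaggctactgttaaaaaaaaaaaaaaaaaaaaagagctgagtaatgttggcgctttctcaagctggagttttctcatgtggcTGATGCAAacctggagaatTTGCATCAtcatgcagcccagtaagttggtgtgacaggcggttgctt
Slc7a7, start 1, chr14:54417945-54418194, minus strand: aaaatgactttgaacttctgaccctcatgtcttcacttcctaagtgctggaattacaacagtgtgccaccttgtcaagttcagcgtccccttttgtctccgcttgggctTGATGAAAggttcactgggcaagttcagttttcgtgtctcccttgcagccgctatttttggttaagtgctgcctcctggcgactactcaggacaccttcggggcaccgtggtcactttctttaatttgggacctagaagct
Slc7a1, start 1, chr5:148399905-148400154, minus strand: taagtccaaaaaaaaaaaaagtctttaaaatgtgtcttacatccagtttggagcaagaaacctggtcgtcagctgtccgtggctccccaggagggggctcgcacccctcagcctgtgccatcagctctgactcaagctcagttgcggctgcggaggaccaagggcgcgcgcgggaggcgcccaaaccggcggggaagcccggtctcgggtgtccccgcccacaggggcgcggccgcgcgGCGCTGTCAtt
Slc3a2, chr19:8713898-8714147, minus strand: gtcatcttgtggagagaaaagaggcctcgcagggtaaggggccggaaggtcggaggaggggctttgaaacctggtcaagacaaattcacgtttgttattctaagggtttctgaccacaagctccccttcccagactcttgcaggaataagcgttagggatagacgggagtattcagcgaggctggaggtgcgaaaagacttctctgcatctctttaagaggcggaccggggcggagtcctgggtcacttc
The Slc7a11 promoter held the C/EBP-ATF core 2 times, as TGATGCAA 66 bases before the start on the plus sense of the gene and as TTGCATCA, the same core on the other strand, 47 bases before it. In Slc7a7 the core was TGATGAAA, 141 bases before start 1, and the next start of that gene had TGATGCAA 243 bases before it. Slc7a1 start 1 held the antioxidant core on the other strand, as GCGCTGTCA, 11 bases before the start. A start of Slc7a6 held TGACGTGGC 68 bases before it. Slc3a2 and Slc7a8 held neither set of letters in this window. A match is a run of letters and not a measured binding site.

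In fetal liver the knockout arrays were higher than the wild-type arrays for most of these genes. Slc7a3 had the largest difference of the 8 genes tested, 1.07 ± 0.13 (log2, SE), followed by Slc7a1 at 0.62 ± 0.14 and Slc7a5 at 0.45 ± 0.12. Slc7a6 differed by 0.00 ± 0.11. The difference was positive for 8 of 8 genes tested, against 44.8% of all genes tested, although that of Slc7a6 became -0.04 when the arrays were centred on their medians. With the mean of all probe sets of a gene, Slc7a6 was at -0.07 and Slc7a2 at -0.02. Both knockout arrays lay above both wild-type arrays for 7 of 8 genes, the exception being Slc7a6, where 19.9% of all genes did so. The median difference of the 8 genes was 0.32, and that of all 13136 genes was -0.03. These counts come from the contrast that helped choose the genes, and nothing is read from them.

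**Figure D2:**
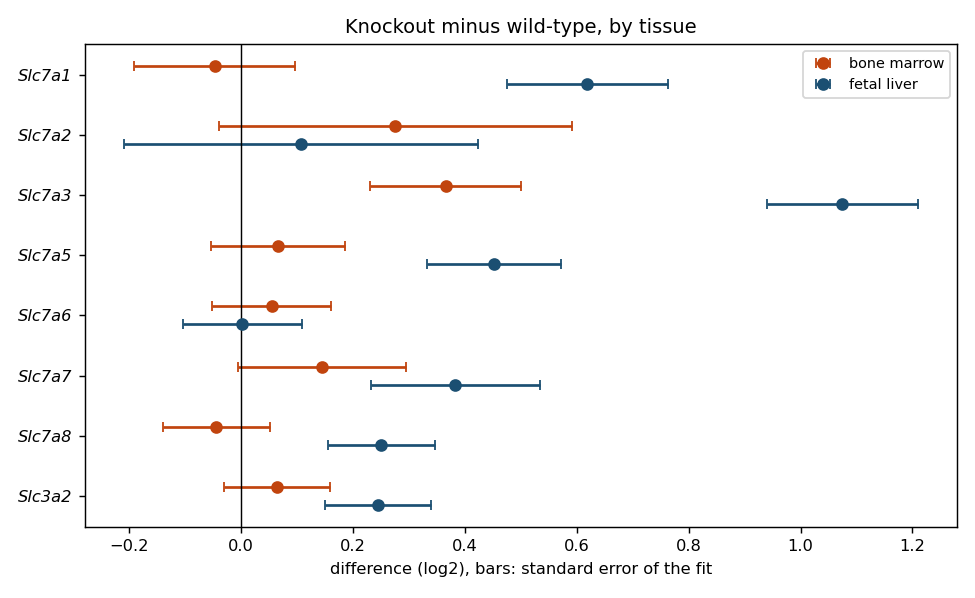
Knockout minus wild-type difference (log2, x axis) of each tested gene, with bars of 1 standard error of the limma fit, in bone marrow and in fetal liver. In fetal liver the differences run from 0.00 for Slc7a6 to 1.07 for Slc7a3, and in bone marrow from -0.05 for Slc7a1 to 0.37 for Slc7a3.

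Among the cationic transporters, Slc7a3 (chromosome X, 1 probe set), an arginine transporter best known from brain and embryonic cells, had levels of 5.23 and 5.46 in knockout fetal liver against 4.37 and 4.17 in wild-type fetal liver. The knockout arrays were clear of the wild-type ones, and the wild-type level was close to that of marrow and under the filter. The linear ratio was 2.11. Because Slc7a3 is on chromosome X and near the bottom of the array's range, the differences in Xist and in dim signal stand beside this value, and their part in it was not tested. Slc7a1 (chromosome 5), the widely expressed arginine transporter that also serves as a retrovirus receptor in mice, stood at 10.82 and 10.43 in knockout fetal liver against 9.93 and 10.07 in wild-type fetal liver, a ratio of 1.54. The 2 groups did not overlap, but the knockout arrays were further apart from each other than the wild-type ones. Its dimmer probe set above the filter gave 9.16 and 9.05 in knockout against 8.55 and 8.40 in wild-type, a difference of 0.63 ± 0.11. The third, at 4.31 to 4.57 on all fetal liver arrays, gave 0.06 ± 0.15 and was never above the filter. Slc7a2 (chromosome 8), the arginine transporter of hepatocytes and activated macrophages, stood at 8.98 and 8.90 in knockout against 8.85 and 8.83 in wild-type, a difference of 0.11 ± 0.32. The groups did not overlap, and the difference was smaller than its standard error, which pools the spread of all 4 groups and so takes in the wide marrow values. Its dimmer probe sets did not share this direction. The brightest of them gave 5.22 and 5.21 in knockout against 5.34 and 5.12 in wild-type (-0.02 ± 0.14), overlapping. The next gave 4.18 and 4.17 in knockout against 4.35 and 4.46 in wild-type (-0.23 ± 0.13), with both knockout arrays below, and the dimmest, at 2.87 to 3.34, gave 0.06 ± 0.17.

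The heavy chain gene Slc3a2 (chromosome 19) stood at 10.11 and 9.96 in knockout fetal liver against 9.73 and 9.85 in wild-type fetal liver, a difference of 0.24 ± 0.09. Its knockout arrays were the 2 highest of all 8 arrays. Slc7a5 (chromosome 8), the light chain LAT1, which brings in leucine and other large neutral amino acids, stood at 10.71 and 10.47 in knockout against 10.01 and 10.26 in wild-type, a ratio of 1.37. Here too the knockout arrays did not overlap the wild-type ones. Slc7a8 (chromosome 14), the related light chain LAT2, stood at 5.85 and 5.81 in knockout against 5.51 and 5.65 in wild-type, a difference of 0.25 ± 0.10. The heavy chain and both LAT light chains lay higher on both knockout arrays, as 19.9% of all genes did.

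Slc7a7 (chromosome 14) encodes y+LAT1, which exports cationic amino acids in exchange for neutral ones and is active in macrophages and epithelia. Its levels were 6.50 and 6.52 in knockout fetal liver against 5.94 and 6.31 in wild-type fetal liver, a difference of 0.38 ± 0.15, and its dimmer probe set gave 4.71 and 4.73 in knockout against 4.19 and 4.43 in wild-type, a difference of 0.41 ± 0.17. Both probe sets separated the groups, with the wild-type arrays further apart. Slc7a6 (chromosome 8), the sister light chain y+LAT2, stood at 7.31 and 7.10 in knockout against 7.28 and 7.12 in wild-type, and at 7.18 and 7.0 in knockout against 7.19 and 7.29 in wild-type on its other probe set, where the difference was -0.15 ± 0.11. The groups overlapped on the brighter probe set, and on the other the knockout arrays lay just below the wild-type ones. Slc7a11 (chromosome 3), the cystine-glutamate exchanger xCT, was dim, at 3.27 and 3.07 in knockout against 3.08 and 3.34 in wild-type on its brighter probe set, and at 3.16 and 3.44 in knockout against 3.22 and 3.30 in wild-type on the other. No difference in Slc7a11 was detectable at such levels.

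Some marker sums separated the fetal liver genotypes and others overlapped. Single markers did not all follow their list. The endothelial marker Cdh5 was lower on both knockout arrays, and endothelial Tek and erythroid Epor overlapped. So did the stroma markers Col1a1, Col1a2, Dcn, Pdgfrb and Sparc. The summed level of the erythroid markers was 15.71 to 15.80 in knockout fetal liver against 15.53 to 15.60 in wild-type fetal liver, with 9 of 10 at 5 or more in each. Endothelial markers, 9 of 9 on the array, summed to 10.96 to 11.04 in knockout against 10.84 to 10.90 in wild-type. Stroma markers, 10 of 10, summed to 13.32 to 13.65 in knockout against 13.70 to 13.71 in wild-type. Megakaryocyte markers, 10 of 11, summed to 13.04 on both knockout arrays against 13.06 to 13.08 in wild-type. The hepatoblast sums, 16.60 to 16.66 in knockout against 16.56 to 16.62 in wild-type, and the macrophage sums of 12 of 13 markers, 12.61 to 12.65 in knockout against 12.58 to 12.68 in wild-type, overlapped. The 3′ to 5′ signal ratio of the Gapdh control probes, a sign of RNA breakdown, was 1.86 and 1.62 (log2) in knockout against 1.33 and 1.66 in wild-type, and that of the actin control probes 1.80 and 1.62 in knockout against 1.45 and 1.62 in wild-type, both overlapping. The part of these differences in the transporter values was not tested.

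In bone marrow the knockout minus wild-type differences ran from -0.05 for Slc7a1 to 0.37 for Slc7a3, with Slc7a2 at 0.28 ± 0.32 and the other 5 tested genes between -0.04 and 0.14. The difference was positive for 6 of 8, against 54.4% of all genes, with a median of 0.06 against 0.01 for all genes. Both knockout arrays lay above both wild-type arrays for 3 of 8, against 23.8% of all genes. These counts too come from a contrast that helped choose the genes.

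Slc7a3 stood at 4.44 and 4.21 in knockout marrow against 4.07 and 3.85 in wild-type marrow, a difference of 0.37 ± 0.13. All 4 values were under the filter level. Slc7a1 stood at 10.36 and 10.11 in knockout against 10.26 and 10.31 in wild-type, and the wild-type arrays fell between the knockout ones. Slc7a2, at 5.45 and 4.93 in knockout against 5.48 and 4.34 in wild-type, had the widest spread within a group of any of these genes in marrow. Slc3a2 was at 9.74 and 9.79 in knockout against 9.69 and 9.71 in wild-type, and Slc7a5 at 9.95 and 9.86 in knockout against 9.84 and 9.83 in wild-type. Both genes of the CD98-LAT1 pair lay higher on both knockout arrays, by 0.06 ± 0.09 and 0.07 ± 0.12, as 23.8% of all genes did. Both differences were smaller than their standard errors. Slc7a8 was at 5.42 and 5.54 in knockout against 5.57 and 5.49 in wild-type, Slc7a6 at 7.20 and 7.27 in knockout against 7.21 and 7.15 in wild-type, and Slc7a7 at 6.14 and 6.49 in knockout against 6.13 and 6.21 in wild-type. These 3 light chains overlapped between genotypes. Slc7a11 was at 3.79 and 3.61 in knockout against 3.98 and 3.74 in wild-type, again overlapping and dim. Megakaryocyte markers, 10 of 11 on the array, differed beside these values, at a summed 13.00 to 13.06 in knockout against 14.00 to 14.26 in wild-type marrow. So did stroma markers, at 11.76 to 11.80 in knockout against 12.25 to 12.58 in wild-type, macrophage markers, at 12.95 to 13.00 in knockout against 12.78 to 12.86 in wild-type, and B lineage markers, at 13.83 to 13.87 in knockout against 13.92 to 13.93 in wild-type. Neutrophil sums, at 17.05 to 17.08 in knockout against 17.03 to 17.04 in wild-type, also separated. Erythroid sums did too, at 15.78 to 15.79 in knockout against 15.72 to 15.77 in wild-type. Endothelial sums lay at 8.50 to 8.55 in knockout against 8.58 to 8.74 in wild-type. Single markers did not all separate the marrow genotypes: the macrophage markers Vcam1 and C1qb and the B lineage markers Pax5 and Vpreb1 overlapped. The part of these marker sums in the transporter values was not tested.

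The interaction asked whether the genotype difference in marrow differed from that in fetal liver. It was negative for Slc7a3 at -0.71 ± 0.19, for Slc7a1 at -0.67 ± 0.20 and for Slc7a5 at -0.39 ± 0.17, the knockout-minus-wild-type difference being smaller in marrow. Over all genes, 0.0914% were called in this contrast by limma (adjusted p under 0.05). The sex-linked difference of the fetal liver pools enters this contrast as well.

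Set against fetal liver of the same genotype, adult bone marrow had far less Slc7a2 in both genotypes. The other tested genes had smaller differences, which were mostly negative in knockout mice and of both signs in wild-type mice. In knockout mice Slc7a2 stood at 5.45 and 4.93 in marrow against 8.98 and 8.90 in fetal liver, a difference of -3.76 ± 0.32. In wild-type mice it stood at 5.48 and 4.34 in marrow against 8.85 and 8.83 in fetal liver, a difference of -3.92 ± 0.32. No marrow array came near a fetal liver array. The marrow level was 0.0740 of the fetal liver level in knockout mice and 0.0659 of it in wild-type mice. The other Slc7a2 probe sets differed in the same direction, with smaller differences at lower levels. The brightest of these gave 3.50 and 3.76 in knockout marrow against 5.22 and 5.21 in knockout fetal liver, a difference of -1.58 ± 0.14. In wild-type mice it gave 3.38 and 3.60 in marrow against 5.34 and 5.12 in fetal liver, a difference of -1.74 ± 0.14. The next differed by -0.80 ± 0.13 in knockout and -1.02 ± 0.13 in wild-type mice, and the dimmest by -0.60 ± 0.17 in knockout and -0.50 ± 0.17 in wild-type mice. Hepatoblast markers moved the same way as Slc7a2, Alb being at 3.85 to 4.95 in marrow and 14.35 to 14.51 in fetal liver. So did endothelial sums, at 8.50 to 8.74 in marrow and 10.84 to 11.04 in fetal liver. Stroma sums did too, at 11.76 to 12.58 in marrow and 13.32 to 13.71 in fetal liver. Neutrophil and B lineage sums moved the other way. The 3′ to 5′ ratios also differed between the tissues, at 0.48 to 0.78 (log2) in marrow against 1.33 to 1.86 in fetal liver for Gapdh, and at 0.62 to 0.73 in marrow against 1.45 to 1.80 in fetal liver for actin. The part of the marker and 3′ to 5′ differences in these tissue differences was not tested.

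**Figure D3:**
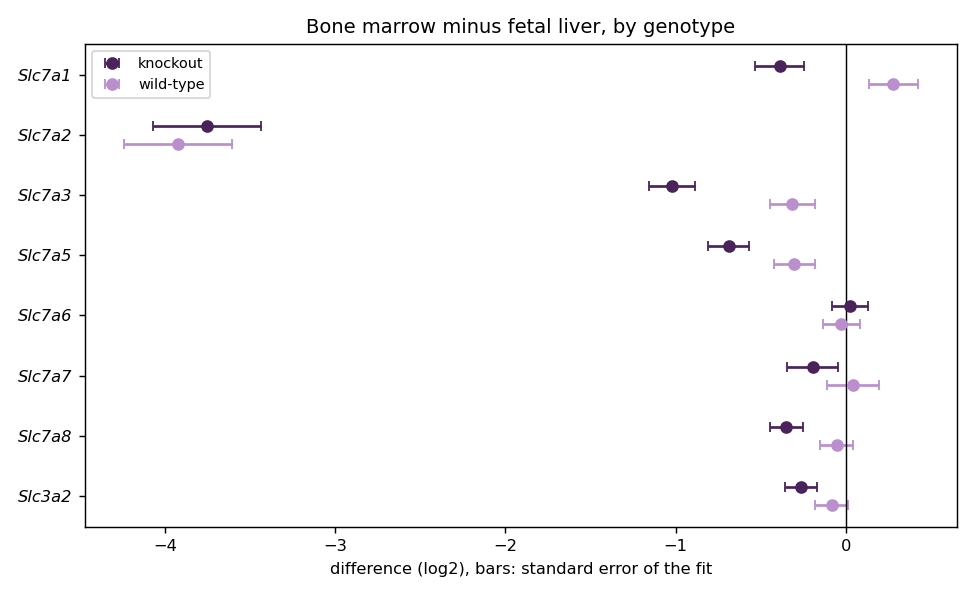
Bone marrow minus fetal liver difference (log2, x axis) of each tested gene, with bars of 1 standard error of the limma fit, in knockout and in wild-type mice. Slc7a2 lies near -4 in both genotypes, and the other genes lie between -1.02 and 0.28.

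In knockout mice the median tissue difference of the 8 genes was -0.37, against -0.11 for all genes, and both marrow arrays lay below both fetal liver arrays for 7 of 8, against 47.8% of all genes. In wild-type mice the median was -0.07, against -0.14 for all genes, and both marrow arrays lay below for 4 of 8 and above for 1 of 8, against 50.9% and 33.8% of all genes. Nothing is read from these counts, since tissue differences helped choose the genes, and Slc7a3 was among the genes tested only through its knockout fetal liver arrays. Without knockout fetal liver replicate 1, the knockout tissue differences of Slc7a1 and Slc3a2 were both -0.19. The contrasts share no arrays with each other, and the difference between them is the interaction given above. Xist differed by -6.31 between the wild-type tissues (marrow minus fetal liver), against -0.05 between the knockout tissues. In wild-type mice, tissue and the sex make-up of the pools therefore cannot be told apart.

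After Slc7a2, the tissue differences in knockout and wild-type mice were as follows. Slc7a3 was -1.02 ± 0.13 in knockout and -0.31 ± 0.13 in wild-type, and Slc7a5 -0.69 ± 0.12 in knockout and -0.30 ± 0.12 in wild-type. Slc7a1 was -0.39 ± 0.14 in knockout and 0.28 ± 0.14 in wild-type, so that its sign differed between the genotypes, whose fetal liver pools also differed in Xist. Wild-type marrow, at 10.26 and 10.31, lay above wild-type fetal liver, at 9.93 and 10.07, and this was the only gene of the 8 with both wild-type marrow arrays above. Slc7a8 was -0.35 ± 0.10 in knockout and -0.05 ± 0.10 in wild-type, and Slc3a2 was -0.26 ± 0.09 in knockout and -0.08 ± 0.09 in wild-type. Slc7a7 was -0.19 ± 0.15 in knockout and 0.04 ± 0.15 in wild-type, and Slc7a6 was 0.03 ± 0.11 in knockout and -0.03 ± 0.11 in wild-type. The sister light chains y+LAT1 and y+LAT2 thus had the smallest tissue differences of the genes tested in knockout mice. Slc7a11, which was not tested, differed by 0.53 ± 0.15 in knockout and 0.65 ± 0.15 in wild-type mice on its brighter probe set, at levels under 4 in both tissues, and by 0.31 ± 0.13 in knockout and 0.32 ± 0.13 in wild-type mice on the other.

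The remaining genes of the family were mostly dim. Of 8 further genes, the other Slc7 members and Slc3a1, the heavy chain of kidney and gut, 3 were tested. By limma, 0 of these were called by genotype, where 0.32% of all genes were in fetal liver and 0.411% in marrow. Of the 3, 1, Slc3a1, had an unadjusted p under 0.05 in each tissue. Of all genes, 22% did in fetal liver and 6.74% in marrow. Slc7a4 lay between 7.42 and 7.96 on all 8 arrays. Slc7a9, the light chain that pairs with Slc3a1 in cystine uptake, stood at 3.17 and 3.59 in knockout marrow against 5.99 and 6.22 in knockout fetal liver, and at 3.18 and 3.53 in wild-type marrow against 6.49 and 6.34 in wild-type fetal liver. In marrow it fell by 2.73 ± 0.17 in knockout mice (adjusted p = 1.44e-06, limma) and by 3.07 ± 0.17 in wild-type mice (adjusted p = 6.79e-07, limma). In marrow Slc3a1 fell by 0.75 ± 0.13 in knockout mice (adjusted p = 0.00103, limma) and by 0.73 ± 0.13 in wild-type mice (adjusted p = 0.00105, limma). Slc3a1 stood at 4.24 and 4.52 in knockout marrow against 5.25 and 5.00 in knockout fetal liver. In wild-type mice it stood at 4.74 and 4.69 in marrow against 5.35 and 5.56 in fetal liver. Both genes of this cystine transport pair lay lower in marrow. They reached the filter level of 5 only on fetal liver arrays, so their place among the genes tested depended on this direction. Slc7a10, Slc7a12, Slc7a13, Slc7a14 and Slc7a15 stayed at 2.74 to 5.07 and were not tested.

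Amino acid transporters of other families gave no call by genotype. Of 37 listed, 27 were tested; in fetal liver 0 passed the adjusted threshold by limma (0.32% of all genes did) and 5 had an unadjusted p under 0.05, against 22% of all genes, with a median of 0.14. The nearest were Slc36a4 at -0.45 ± 0.12 (adjusted p = 0.108, limma) and Slc36a1 at 0.46 ± 0.13 (adjusted p = 0.122, limma). The glutamine transporter Slc38a1 came next at 0.29 ± 0.08 (adjusted p = 0.122, limma). Its levels were 9.56 and 9.55 in knockout against 9.23 and 9.30 in wild-type. In marrow 0 passed by limma, where 0.411% of all genes did, and 0 had an unadjusted p under 0.05, where 6.74% of all genes did. Between tissues 9 of 27 were higher in marrow and 7 lower in each genotype. Of all genes, 27.1% were higher and 36.6% lower in knockout marrow, and 26.8% were higher and 39.2% lower in wild-type marrow. Slc38a4, a transporter of neutral and cationic amino acids that is abundant in liver, fell by 6.85 ± 0.16 in knockout marrow (adjusted p = 4.77e-09, limma) and by 7.08 ± 0.16 in wild-type marrow (adjusted p = 4.17e-09, limma). It reached the filter level of 5 only on fetal liver arrays, so its place among the genes tested depended on this direction. Slc6a20a, a proline transporter, was higher in marrow by 3.35 ± 0.22 in knockout mice (adjusted p = 2.2e-06, limma) and by 3.58 ± 0.22 in wild-type mice (adjusted p = 1.38e-06, limma). Slc38a9, the lysosomal arginine sensor, was higher in marrow by 1.70 ± 0.17 in knockout mice (adjusted p = 2.95e-05, limma) and by 2.03 ± 0.17 in wild-type mice (adjusted p = 9.04e-06, limma).

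**Figure D4:**
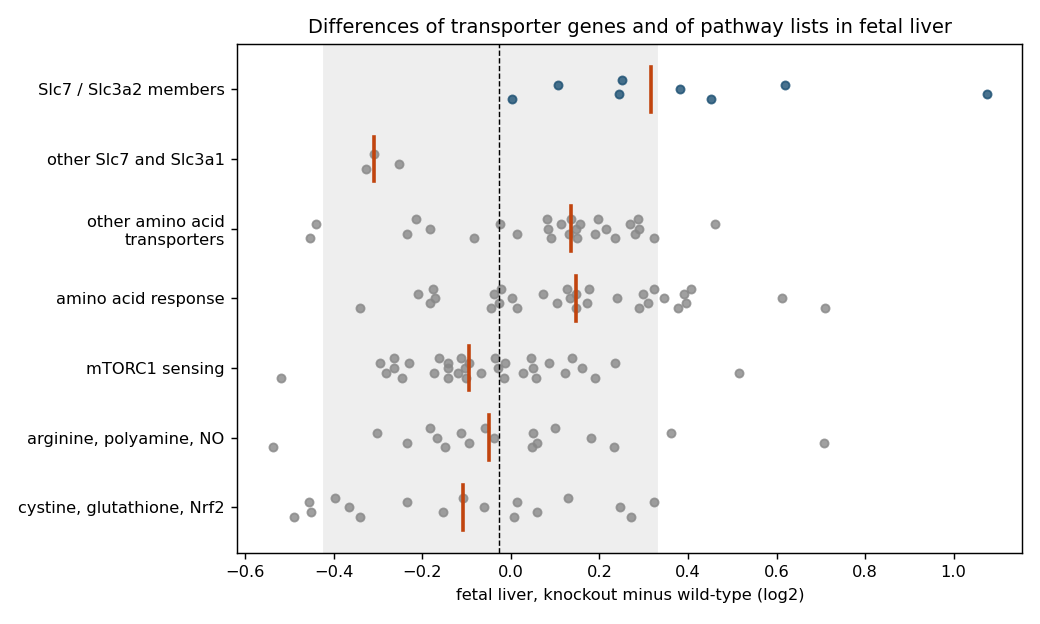
Knockout minus wild-type difference in fetal liver (log2) of each tested gene of the transporter genes and of each list of related genes, 1 point per gene, with the median of each list as a vertical bar. The dashed line is the median of all genes tested, and the grey band spans -0.42 to 0.33, leaving out the lowest and the highest 5% of them. The medians are 0.32 for the 8 transporter genes, 0.15 for the amino acid response list and -0.11 for the cystine and glutathione list, against -0.03 for all 13136 genes.

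The amino acid response list, made of Atf4 and genes linked to it, included no call by genotype. Of 31 genes tested, 0 passed in fetal liver by limma, where 0.32% of all genes did, so this count is uninformative. Of the 31, 10 had an unadjusted p under 0.05, where 22% of all genes did, and the median was 0.15. Without knockout fetal liver replicate 2, which raised the calls over all genes to 1011, 2 genes of the list were called. Both knockout arrays lay above both wild-type arrays for 18 of 31, against 19.9% of all genes, and below for 4 of 31, against 30.2%. Atf5, a transcription factor translated under the same stress, was closest to the threshold, with 9.52 and 9.39 in knockout against 8.66 and 8.83 in wild-type, a difference of 0.71 ± 0.12 (adjusted p = 0.0586, limma). Atf4 differed by 0.29 ± 0.09 (adjusted p = 0.131, limma), the glutathione-degrading enzyme gene Chac1 by 0.39 ± 0.09 (adjusted p = 0.0996, limma) and the asparagine synthetase gene Asns by 0.13 ± 0.09 (adjusted p = 0.405, limma). In marrow 0 passed by limma, where 0.411% of all genes did. Of the 31, 3 had an unadjusted p under 0.05 in marrow, where 6.74% of all genes did. The stress factor Atf3, at 6.63 and 6.16 in knockout against 5.61 and 5.43 in wild-type, differed by 0.87 ± 0.17 (adjusted p = 0.108, limma). Between tissues, 8 of 31 genes were higher and 19 lower in knockout marrow, where 27.1% and 36.6% of all genes were, and 8 were higher and 18 lower in wild-type marrow, where 26.8% and 39.2% were. In wild-type marrow Asns fell by 1.88 ± 0.09 (adjusted p = 2.6e-07, limma) and Cth, which makes cysteine, fell by 6.55 ± 0.23 (adjusted p = 4.27e-08, limma), while Cebpb was higher in marrow by 1.05 ± 0.08 (adjusted p = 7.37e-06, limma). Cth reached the filter level of 5 only on fetal liver arrays, so its place among the genes tested depended on being higher there.

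The lists of amino acid sensing by mTORC1, of arginine use and of cystine and glutathione gave 0 genotype calls by limma in either tissue. Of all genes, 0.32% were called in fetal liver and 0.411% in marrow, so 0 calls in lists of this size is uninformative. In fetal liver 6 of 33, 3 of 18 and 7 of 17 genes had an unadjusted p under 0.05, where 22% of all genes did. In marrow 3, 1 and 1 did, where 6.74% of all genes did. The fetal liver medians of these lists were -0.09, -0.05 and -0.11. Deptor, an inhibitor of mTOR, stood at 7.86 and 7.81 in knockout fetal liver against 7.37 and 7.26 in wild-type (0.52 ± 0.10; adjusted p = 0.089, limma). Ddah1, which breaks down inhibitors of nitric oxide synthase, stood at 9.84 and 9.65 in knockout against 8.85 and 9.22 in wild-type (0.71 ± 0.17; adjusted p = 0.0996, limma). Txnrd1, the cytosolic thioredoxin reductase, differed by 0.32 ± 0.09 (adjusted p = 0.117, limma). Cd44 of the same list was lower, at -0.40 ± 0.09 (adjusted p = 0.0996, limma). Of the genes with an unadjusted p under 0.05 in fetal liver, 1 of 6, 2 of 3 and 1 of 7 were higher in knockout. Both knockout arrays lay above both wild-type arrays for 5 of 33, 5 of 18 and 1 of 17. They lay below for 14 of 33, 3 of 18 and 8 of 17, against 19.9% above and 30.2% below of all genes. Of the arginine-degrading arginases, Arg1 fell by 3.77 ± 0.35 in wild-type marrow (adjusted p = 1.77e-05, limma), while Arg2 was higher in marrow by 4.20 ± 0.15 in knockout mice (adjusted p = 4.33e-08, limma) and by 4.51 ± 0.15 in wild-type mice (adjusted p = 2.88e-08, limma). The urea cycle gene Otc fell by 6.96 ± 0.16 in knockout marrow (adjusted p = 5.56e-09, limma) and by 7.21 ± 0.16 in wild-type marrow (adjusted p = 4.8e-09, limma). Arg1 and Otc reached the filter level of 5 only on fetal liver arrays, and Arg2 only on marrow arrays. Their place among the genes tested therefore depended on these directions. Of the glutathione genes, Gss fell by 2.73 ± 0.10 in knockout marrow (adjusted p = 6.11e-08, limma) and Gsr was higher by 1.28 ± 0.09 (adjusted p = 4.15e-06, limma).

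The genes whose pattern over the 8 arrays was most like that of Slc7a3, by the root mean square difference of log2 levels after centring each gene, were Rora at 0.26, Zbtb46 at 0.28, Arrb1 at 0.29, Frrs1 at 0.30 and Egr1 at 0.30. Each of the other tested genes had a closer neighbour than Slc7a3 had. Slc7a2 was nearest to Gpr182 at 0.22, Slc3a2 to Ctc1 at 0.033, Slc7a6 to Clptm1l at 0.044, Slc7a8 to Fam98b at 0.045, Slc7a5 to Pip4k2c at 0.054, Slc7a7 to Sprr2k at 0.068 and Slc7a1 to Tmem164 of chromosome X at 0.083. A gene that varies little over the arrays has near neighbours by this measure, since small differences stay small.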

How the data were processed

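The authors made 1 intensity per probe set and array with RMA, per the submitters' processing notes; no version is named there. RMA corrects background, quantile-normalizes and summarises probes, so a shift of most genes in 1 direction is removed. All values here are log2 of that deposited intensity. Groups come from the sample titles. Of the probe sets, 34958 name 1 gene, 932 several and 9211 are unnamed here; 34754 had their Entrez identifier in a RefSeq table, and 0 symbols changed. Each gene is represented by its brightest probe set (mean of 8 arrays), and genes at 5 or more on at least 2 arrays were tested. Slc38a4, Cth, Otc, Arg1 and Arg2 reached 5 in 1 tissue only, so their place among the genes tested depended on that tissue.

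A model with a mean for each group was fitted with limma 3.58.1 in R 4.3.3 (4 residual and 4.48 prior degrees of freedom) on the 8 arrays together, with Benjamini-Hochberg adjustment over 13136 genes, two-sided, at 0.05. P-values measure the spread between pools of littermates only. Alternatives covered the filter, probe set choice, scaling, variance model, array weights, replicate number, arrays fitted and each array left out.

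The genes described and all lists were chosen with earlier results of these data known. Of each list, the rule for naming took up to 3 genes per contrast and direction with the largest moderated t past the threshold, or the 1 with the largest t where none passed. Atf4, Chac1, Asns, Arg1, Slc36a1, the single cell type markers and the dim Slc7 genes outside the 9 were named after their values were seen. Replicate numbers did not pair the arrays: deviations of equal numbers correlated at -0.004 in marrow and -0.062 in fetal liver, across genes. Median array intensities lay between 40.8 and 42.6.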

Additional observations from a re-analysis of the deposited data

How the results depend on the processing

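The counts of genes called depended on the fit, and the cause was not tested. Of 54 calls by genotype in marrow, an intensity trend with robust prior gave 97, array weights 109, a replicate block 34, the 4 marrow arrays alone 3, and leaving out 1 array 2 to 73. Of 42 in fetal liver, no filter gave 14, the trend 409, weights 9, the replicate block 4, the fetal liver arrays alone 4, and leaving out 1 array 5 to 1011, with 5 without knockout fetal liver replicate 1 and 1011 without replicate 2. Of 12 interaction calls, no filter gave 5, renewed quantile normalization 19, the trend 68, weights 6, the block 6, and leaving out 1 array 5 to 80. The split of 3 higher and 9 lower became 4 and 6 after median centring, and 60 and 20 without knockout fetal liver replicate 2. Tissue counts stayed within 1.5 times. Over the settings listed at the outset, the fetal liver difference of Slc7a3 lay between 0.97 and 1.18. Without either knockout fetal liver array it failed the filter; with no filter, an alternative added after seeing the data, it was 1.19 without replicate 1 and 0.96 without replicate 2. Slc7a1 and Slc7a5 in fetal liver lay between 0.43 and 0.81 and between 0.33 and 0.58 with 1 array left out. The knockout tissue differences of Slc7a1 and Slc3a2 were both -0.19 without knockout fetal liver replicate 1. Averaging the probe sets of Slc7a2 gave -1.68 in knockout and -1.80 in wild-type mice. Of 732 alternative values for 40 differences of these genes, 22 had the opposite sign. Many settings left a difference unchanged and altered only its standard error. The fetal liver difference of Slc7a1 stayed at 0.619 with the trend, with the replicate block and without any 1 marrow array. The sign could not change there, so 22 of 732 does not measure how stable the signs were.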
